A study of Mus musculus with 12 samples.

Results

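Acetylation and trimethylation compete for the same residue, lysine 27 of histone H3. The 9 genes examined here encode enzymes and readers of those marks: the acetyltransferases *Ep300* (p300) and *Crebbp* (CBP), the bromodomain proteins *Brd2* and *Brd3*, the deacetylases *Hdac1*, *Hdac2* and *Hdac3*, the H3K27 demethylase *Kdm6b* (JMJD3) and the H3K27 methyltransferase *Ezh2*. They were selected by gene name in the 2 deposited peak tables, where each peak carries the name of the gene with the nearest transcription start site (TSS). The Rpb2 table held 32 peaks of these genes among 26706, and the H3K27ac table held 30 among 55862. *Crebbp* had no Rpb2 peak and *Hdac3* no H3K27ac peak, so 7 of the 9 genes had peaks in both tables.

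p300 and CBP are closely related co-activators that place the acetyl group at enhancers and promoters, where Rpb2, the second largest subunit of RNA polymerase II, is found at genes in use. BRD2 and BRD3 bind acetylated histones and help polymerase through nucleosomes. HDAC1 and HDAC2 remove acetyl groups within the NuRD, Sin3 and CoREST complexes, and HDAC3 within the NCoR/SMRT complex. EZH2 is the catalytic subunit of Polycomb repressive complex 2 (PRC2), and KDM6B, which removes the methyl groups, is known as a gene induced by inflammatory signals in macrophages.

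The study compared microglia of WT mice (*Cx3cr1*+/+) with those of KO mice (*Cx3cr1* eGFP/eGFP), littermates on the C57BL/6J background at an age of 2 months. The KO allele is germline and global: eGFP disrupts *Cx3cr1*, the fractalkine receptor gene, in every cell of the animal and not in microglia alone. Microglia were sorted as CD11b+ CD45 low cells and subjected to ChIP-seq for Rpb2 and for H3K27ac, and each library pooled cells of 3 mice of one sex. For each mark, a genotype was represented by a female and a male pool going by the labels, which makes n = 2 pools against 2 throughout, and an exact two-sided permutation test of a single peak could not give a p below 0.333.

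Libraries held 10395804 to 44332626 reads. The Rpb2 KO female library was the deepest. Peaks took 15.9% of the reads of the H3K27ac WT female library and 61.1% to 65.3% of those of the other 3. The Rpb2 library labelled WT female held 136 reads at 3 peaks of Y-linked genes and goes against its sex label. The KO female library held 0 such reads, the WT male library 214 and the KO male library 266. Its WT label was kept. If this library held male cells, sex was partly confounded with genotype in the Rpb2 comparison, and the 2 cannot be told apart there. All 10 microglial markers examined, among them *P2ry12* and *Tmem119*, had peaks of both marks, and their summed Rpb2 level ran from 9646 to 10050 CPM over the 4 libraries. None of the 5 neuronal, 5 astrocytic, 5 lymphoid, 5 monocyte and neutrophil or 5 border macrophage markers had an Rpb2 peak, whereas 2 of 5 oligodendrocyte and 2 of 5 endothelial markers did, at summed levels of 128 to 163 and 50.9 to 86.2 CPM. In H3K27ac, 5 of 5 oligodendrocyte markers (320 to 380 CPM), 4 of 5 endothelial (241 to 300) and 5 of 5 border macrophage markers (60.2 to 80.5) had peaks, as did 3 of 5 in each of the other classes, at 0 to 82 CPM, beside 4054 to 7141 for microglia; their part in the results was not tested. The targeted gene bore on the genotype labels at 1 Rpb2 peak, 21725 bp downstream of the *Cx3cr1* TSS. It held 327 and 290 CPM in the WT pools and 35.1 and 50.7 in the KO pools (log2 fold change -2.86, adjusted p = 0.00264). It was the only peak called among the 25 Rpb2 peaks named for *Cx3cr1*, of which 19 were lower and 6 higher in KO. The single H3K27ac peak of *Cx3cr1* was not called (-0.43, adjusted p = 0.889), so it does not check the H3K27ac labels.

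CPM, the usual depth-scaled count, here relates the reads of a peak to all reads in the peaks of that table, after TMM scaling of the libraries. A log2 fold change is KO over WT, fitted with edgeR (quasi-likelihood), and its p was adjusted by Benjamini-Hochberg over all peaks of a table, or over all genes where the peaks of a gene were summed. A change was called at an adjusted p under 0.05. Each merged peak came from the WT list, the KO list or both, so a peak of one list alone was picked partly for its height in that genotype. The promoter peak of a gene is the one within 1000 bp of its TSS with the highest mean count. Levels are compared between genes per kb of peak, except for sums over the peaks of a gene. Such sums also rise with the number and length of its peaks.

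The members differed widely in polymerase at their promoters, and 4 windows show the range in sequence. The *Brd2* and *Ep300* windows lie at the 2 member promoter peaks with the most Rpb2 and the *Hdac2* window at one of the weakest. The *Crebbp* window lies mostly between the H3K27ac peaks at the start of that gene, which had no Rpb2 peak there. The first 3 are the central 200 bases of the Rpb2 promoter peak, at chr17:34119187-34119386 on the minus strand, chr15:81586177-81586376 on the plus strand and chr10:36974479-36974678 on the plus strand of GRCm38. The last is the RefSeq promoter window of 300 bases at chr16:4213355-4213654 on the minus strand of GRCm38.p6. Capitals mark matches on either strand to the GC box (GGGCGG), the CCAAT box, the ETS core (GGAAGT), the AP-1 site (TGANTCA), the CRE (TGACGTCA) or the TATA box (TATAAA), the last of which was added once the *Brd2* sequence had been seen.
Brd2: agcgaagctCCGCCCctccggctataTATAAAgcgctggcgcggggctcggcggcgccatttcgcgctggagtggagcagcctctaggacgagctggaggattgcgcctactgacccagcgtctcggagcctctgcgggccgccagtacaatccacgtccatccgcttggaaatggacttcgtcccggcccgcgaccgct
Ep300: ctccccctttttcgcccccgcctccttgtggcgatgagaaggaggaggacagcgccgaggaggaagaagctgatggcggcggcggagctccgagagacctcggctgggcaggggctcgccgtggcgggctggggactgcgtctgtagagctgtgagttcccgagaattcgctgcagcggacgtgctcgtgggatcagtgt
Hdac2: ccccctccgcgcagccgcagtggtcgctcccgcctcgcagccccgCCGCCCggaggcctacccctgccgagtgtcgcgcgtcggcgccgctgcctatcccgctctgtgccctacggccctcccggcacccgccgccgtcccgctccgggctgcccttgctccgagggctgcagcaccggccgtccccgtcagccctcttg
Crebbp: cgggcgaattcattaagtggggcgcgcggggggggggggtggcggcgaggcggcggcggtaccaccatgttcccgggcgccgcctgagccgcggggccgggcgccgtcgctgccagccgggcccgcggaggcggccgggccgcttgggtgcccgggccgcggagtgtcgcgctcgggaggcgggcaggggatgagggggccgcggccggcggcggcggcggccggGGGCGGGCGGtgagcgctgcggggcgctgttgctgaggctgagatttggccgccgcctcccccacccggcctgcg

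The *Brd2* window held 1 GC box and 1 TATAAA. A GC box occurred in 49.8% of the 200-base windows at the promoter peaks of all genes and TATAAA in 3.35%. *Brd2* was the only one of the 8 member promoter peaks with a TATAAA match in that window. The *Ep300* window matched none of the 6 motifs, the *Hdac2* window held 1 GC box, and the *Crebbp* window held 2 overlapping GC boxes, which 35.7% of all RefSeq promoter windows contain at least once. The 3 peak windows were 66.0%, 66.5% and 78.5% G or C, beside a median of 65.5% over the promoter peaks of all genes, and the *Crebbp* window was 82.0% G or C with 49 CpG. A promoter window was found in the RefSeq table for 6 of the 9 genes. A match here describes letters in a window and not a bound factor.

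In WT microglia *Brd2* and *Ep300* stood highest. The *Brd2* promoter peak carried 1891 ± 69.4 CPM per kb of Rpb2 (SD, n = 2), which placed it at percentile 99.7 of the 8350 genes with an Rpb2 promoter peak, whose median was 185 CPM per kb. *Ep300* followed with 544 ± 69.7 CPM per kb, at percentile 90.8. *Hdac1* (312 ± 30.0) and *Brd3* (294 ± 78.4) came next and did not differ beyond their spread, and *Ezh2* (185 ± 34.7), *Hdac3* (171 ± 41.3) and *Hdac2* (125 ± 66.2) likewise lay within one another's spread, around or below the median of all genes. The last was *Kdm6b*, at 2.02 ± 2.86 CPM per kb in WT, percentile 0.0719. This peak came from the KO list alone, so its low WT rank is in part fixed by how it was picked. The Rpb2 CPM of *Kdm6b* summed over its 8 peaks, and not per kb, stood at percentile 98.7 of all gene sums in WT.

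H3K27ac had the same 2 genes at the top. The *Brd2* promoter peak spanned 9394 bp and carried 37.7 ± 11 CPM per kb of H3K27ac, at percentile 99.96 of 9521 genes. It also overlaps the neighbouring gene *H2-DMa*, so its reads cannot be assigned to 1 of the 2 genes. *Ep300* carried 25.0 ± 5.76, at percentile 96.8. *Crebbp* (16.5 ± 3.76), *Hdac1* (16.1 ± 0.628) and *Hdac2* (13.7 ± 2.50) were within one another's spread, followed by *Brd3* (12.4 ± 1.03) and *Ezh2* (9.54 ± 0.708), the one of the 7 members with an H3K27ac promoter peak that lay below the median of 11 CPM per kb. *Hdac2* therefore stood above the median in H3K27ac, at percentile 65.5, and below it in Rpb2, at percentile 31.4.

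**Figure D1:**
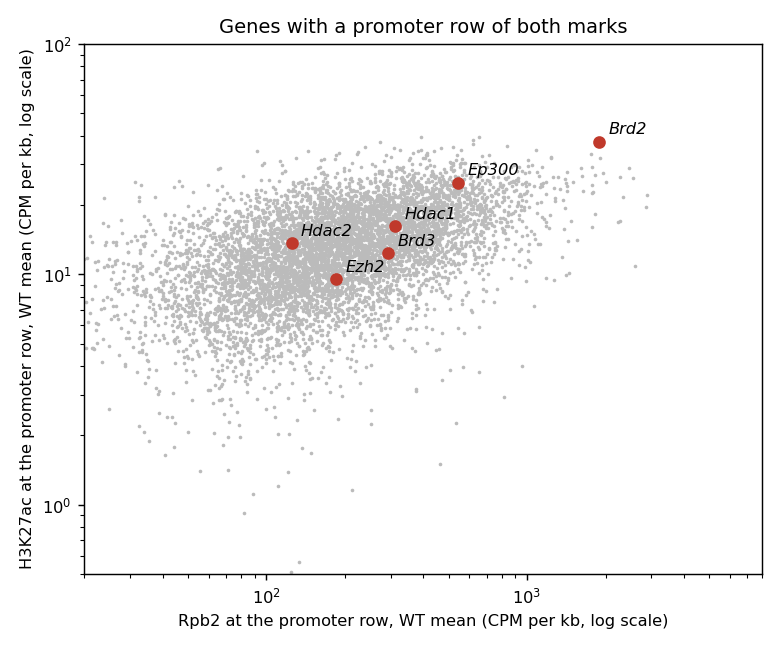
H3K27ac against Rpb2 at promoter peaks in WT, in CPM per kb on log scales, each the mean of 2 pools; grey points are the 6680 genes with a promoter peak of both marks and red points the 6 members among them. *Brd2* lies at the upper right edge (1891 and 37.7 CPM per kb) and *Ep300* inside it, whereas *Hdac2* and *Ezh2* lie within the main body of genes.

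*Crebbp* and *Hdac3* need a word on peak naming, since their missing peaks do not have the same meaning. No Rpb2 peak of any name lay over the start of *Crebbp*. The only Rpb2 peak found within the gene was named for *Trap1* and lay at the far end, with 14.4 ± 2.70 CPM in WT and 4.59 ± 0.971 in KO. It came from the WT list alone and was not called (log2 fold change -1.63, adjusted p = 0.468). The start of *Crebbp* did carry H3K27ac, in 2 peaks of 1121 and 1096 bp on either side of the TSS, with 18.5 ± 4.22 and 8.34 ± 1.39 CPM in WT. The start of *Hdac3* was covered by an H3K27ac peak of 2040 bp assigned to its divergent neighbour *Rell2*, at 21.4 ± 7.25 CPM in WT and 18.4 ± 6.96 in KO, so the deacetylase gene was acetylated at its start although no H3K27ac peak bears its name.

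*Kdm6b* had its strongest polymerase peaks away from its annotated start. Its TSS had hardly any Rpb2, whereas 4 peaks between 2277 and 4853 bp downstream, the first 3 in an intron, carried 422, 861, 699 and 192 CPM per kb in WT, the second and the third of them above the *Ep300* promoter peak. The strongest, 3315 bp downstream, held 243 and 172 CPM in the WT pools and 175 and 154 in the KO pools. The same stretch held the strongest H3K27ac of any member, a peak of 5206 bp with 56.2 CPM per kb in WT and 53.6 in KO, against 6.37 and 6.01 in the peak of 2949 bp over the TSS. A peak 5363 bp upstream, overlapping the neighbouring gene *Dnah2*, carried 14.7 CPM per kb of H3K27ac in WT, and 2 Rpb2 peaks overlapped it.

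*Brd2* showed polymerase along and beyond the gene. Of its 9 Rpb2 peaks, the strongest was the promoter peak, 614 bp downstream of the TSS and over no annotated *Brd2* transcript start. It held 423 and 402 CPM in the WT pools and 399 and 465 in the KO pools, and these ranges overlapped. The second, 704 bp upstream of the TSS used by the tables over an annotated *Brd2* exon and overlapping *H2-DMa*, held 117 ± 37.9 CPM in WT and 134 ± 44.3 in KO. The other 7 were weaker, at 5.44 to 19.2 CPM in WT, and 3 of them lay past the 3' end of the gene. A further 2 Rpb2 peaks within the H3K27ac peak carry the name of *H2-DMa*, with 86.7 ± 11.5 and 88.7 ± 17.5 CPM in WT.

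*Ep300* had Rpb2 in 4 peaks within 2254 bp upstream of its TSS besides the promoter peak, all inside 1 H3K27ac peak of 4470 bp with 112 ± 25.8 CPM in WT. A further H3K27ac peak of 5552 bp, 17774 bp upstream, carried 86.3 ± 36.5 CPM in WT and 79.8 ± 3.09 in KO and also held an Rpb2 peak. Over all members, 25 of 32 Rpb2 peaks overlapped an H3K27ac peak by at least 1 bp, near the 76.6% of all Rpb2 peaks, and 12 of 30 H3K27ac peaks overlapped an Rpb2 peak, against 23.5% of all.

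**Figure D2:**
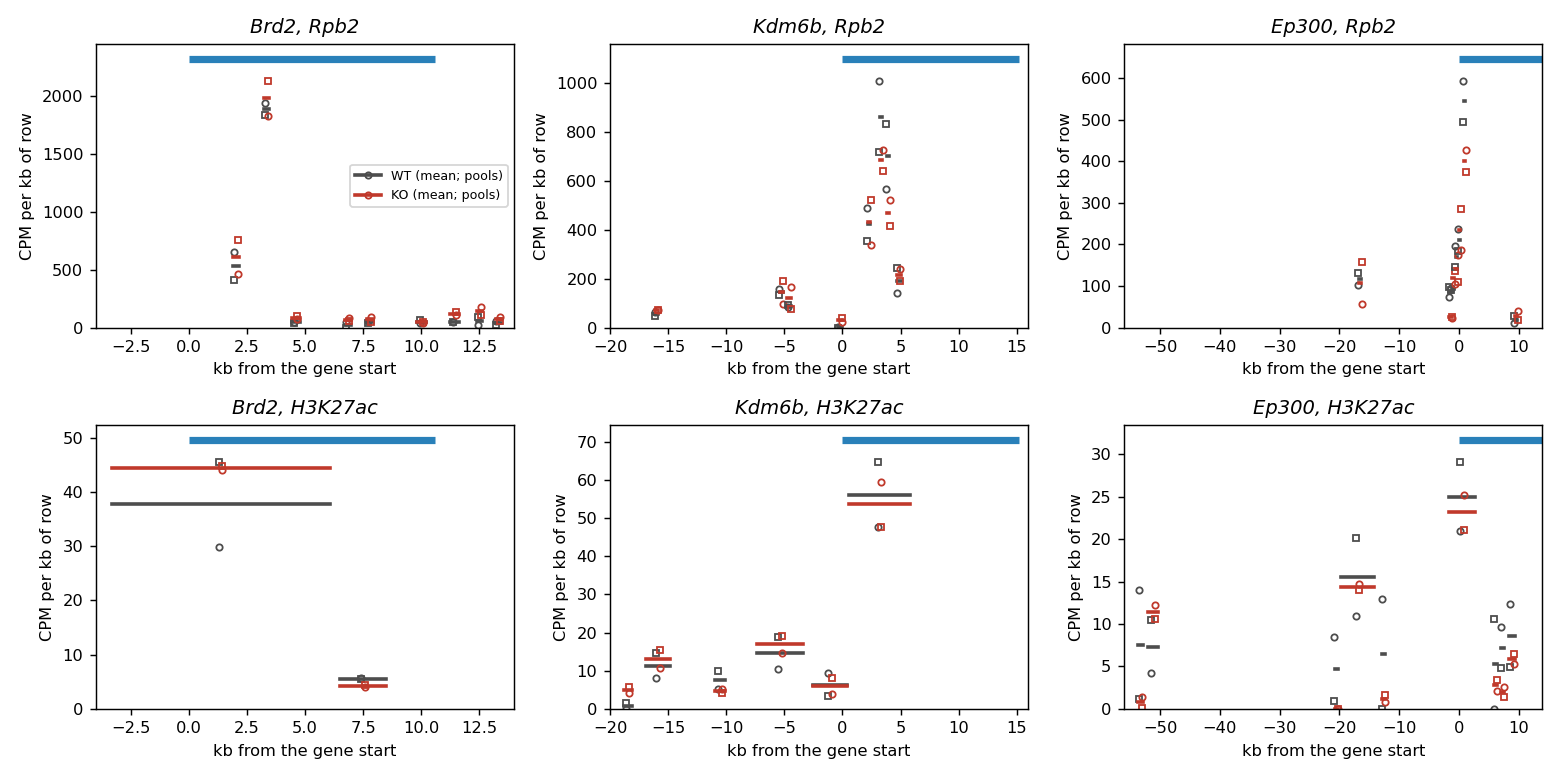
Rpb2 (top) and H3K27ac (bottom) in CPM per kb of peak along *Brd2*, *Kdm6b* and *Ep300*, by distance in kb from the outermost annotated gene start, with the gene as a blue bar (cut off for *Ep300*). Each line spans 1 peak at the mean of WT (grey) or KO (red), circles and squares are the pools labelled female and male; at *Kdm6b* the tall H3K27ac peak spans 0.6 to 5.8 kb past the start and holds 4 of the 8 Rpb2 peaks.

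The comparison of genotypes asked whether loss of *Cx3cr1* alters polymerase or acetylation at these genes. No member peak was called in either table by edgeR's quasi-likelihood test, where 0.00749% of all Rpb2 peaks (2 of 26706) and 0.0233% of all H3K27ac peaks (13 of 55798 tested) were called. At an unadjusted p under 0.05 there were 5 of 32 member Rpb2 peaks, beside 12.2% of all, and 1 of 30 H3K27ac peaks, beside 4.95% of all. DESeq2 called 2 member Rpb2 peaks and 1 H3K27ac peak, beside 3.83% and 0.642% of all peaks with an adjusted p. The likelihood ratio test of edgeR called 1 and 0, beside 3.46% and 0.0269% of all. With peaks summed by gene, 0 of 8 members were called for either mark, beside 0% of all genes for both. One of 8 Rpb2 sums (10.8% of all genes) and 0 of 8 H3K27ac sums (6.48% of all) had an unadjusted p under 0.05, and DESeq2 called none of the member sums, beside 0.274% of all Rpb2 and 1.3% of all H3K27ac sums. Leaving out a WT library raised the calls over the whole table as well as at members. Without the library labelled WT female, 4 of 32 member Rpb2 peaks were called, beside 8.28% of all, and 0 of the member H3K27ac peaks, beside 1.53% of all. Without the WT male library these were 1 Rpb2 peak, beside 7.35% of all, and 4 H3K27ac peaks, beside 14.8% of all. Of the 8 member H3K27ac sums, 1 was called without the WT female library and 2 without the WT male, beside 3.65% and 22.5% of all sums. The median log2 fold change of the member peaks was 0.16 for Rpb2, beside 0.04 over all peaks, and -0.16 for H3K27ac, beside -0.21. The 2 KO pools lay above both WT pools at 11 member Rpb2 peaks and below them at 4, beside 25.7% and 21.7% of all Rpb2 peaks. For H3K27ac these counts were 4 and 5, beside 14.3% and 13% of all.

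The intervals were wide with 2 pools a group. At the promoter peaks of members, the 95% interval of the log2 fold change reached a median of 0.76 to either side for Rpb2 and 0.67 for H3K27ac. As bulk libraries, these pools cannot tell fewer occupied cells from less occupancy per cell.

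*Brd2* gave the member sum with the lowest p. Its 9 Rpb2 peaks summed to 643 and 563 CPM in the WT pools and to 698 and 820 in the KO pools. Both KO pools were above both WT pools, by a log2 fold change of 0.33 (SE 0.12, unadjusted p = 0.0151, adjusted p = 0.332), which was not called. Of the 9 peaks in this sum 6 came from the KO list alone, so its direction is in part fixed by how the peaks were picked, and the 2 peaks of both lists gave 0.19 and 0.07. The promoter peak itself did not differ beyond the spread (0.07, 95% interval -0.30 to 0.43). The 3 peaks past the 3' end had log2 fold changes of 1.37, 1.32 and 0.97. In the first of these, 8695 bp downstream, the WT pools held 17.9 and 17.1 CPM and the KO pools 41.6 and 49.1 (unadjusted p = 0.0134, adjusted p = 0.284). DESeq2 called that peak, at an adjusted p of 0.0486. The peak 9774 bp downstream held 4.67 and 21.7 CPM in WT against 41.5 and 25 in KO and was called without the WT male library (2.84, adjusted p = 0.0199). A peak 4103 bp downstream, in an exon and from the KO list alone, held 14 and 0 reads in WT against 104 and 35 in KO (1.62, adjusted p = 0.589) and was called without the library labelled WT female, when WT is left with 0 reads (adjusted p = 0.00253).

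*Ezh2* likewise had weak peaks at its 3' end, with higher values in both KO pools. A peak in the last part of the gene held 2.33 and 2.63 CPM in the WT pools, from 3 and 4 reads, and 10.5 and 12.5 in the KO pools (log2 fold change 2.19, unadjusted p = 0.0419, adjusted p = 0.388). The peak past the gene end held 16.3 and 3.95 CPM against 22 and 20.3 (1.08, adjusted p = 0.586). At the *Ezh2* promoter peak, where the WT pools held 73.9 and 56.6 CPM and the KO pools 78.6 and 49.5, the groups overlapped. All 5 of the 3' peaks of *Brd2* and *Ezh2* with higher KO values came from the KO list alone. Their direction is thus in part fixed by how the peaks were picked. Of the 17 member Rpb2 peaks of the KO list, 13 were higher in KO with a median of 0.61, beside 75.8% and a median of 0.51 for all peaks of that list.

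For *Ep300*, both genotypes had a strong promoter peak, and the KO values were lower without passing the test. The WT pools held 152 and 127 CPM of Rpb2 there and the KO pools 110 and 96.0 (log2 fold change -0.44, 95% interval -0.99 to 0.11, adjusted p = 0.510). The groups did not overlap, but the interval included 0. A weaker peak 2254 bp upstream held 25.7 and 34.2 CPM against 7.82 and 9.36 (-1.80, unadjusted p = 0.0121, adjusted p = 0.278), and DESeq2 called it at an adjusted p of 0.0314. This peak came from the WT list alone and was also called without the library labelled WT female (-2.01, adjusted p = 0.0374). Its neighbour at 1808 bp upstream, from the KO list alone, gave 28.8 and 27.7 CPM against 31.6 and 41.3. Each direction is thus in part fixed by how the peak was picked. A further 5 Rpb2 peaks toward the 3' end of *Ep300* carry the name of *L3mbtl2*, with log2 fold changes from -3.34 to 2.51, and none was called. H3K27ac at the promoter peak held 93.5 and 130 CPM against 113 and 94.4 (-0.11, 95% interval -0.69 to 0.46).

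*Crebbp*, the other acetyltransferase, had 19 and 31 reads of H3K27ac in the WT pools and 0 in both KO pools at a peak of 500 bp in an intron, 42156 bp into the gene. Against a floor of 3 reads over the KO pools, this was at least 43.6-fold lower, with an unadjusted p of 0.0193 and an adjusted p of 0.811 by edgeR, and it came from the WT list alone. DESeq2 called it at an adjusted p of 0.0375. Such peaks were frequent: 10909 of 55798 H3K27ac peaks had 0 reads in one genotype. At the promoter the WT pools held 21.5 and 15.5 CPM and the KO pools 13.9 and 18.1, which overlapped (-0.20, 95% interval -1.01 to 0.61).

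Among the deacetylases, *Hdac2* had the lowest Rpb2 values. Its promoter peak held 17.1 and 37.5 CPM in the WT pools, from 22 and 57 reads, and 9.27 and 4.68 in the KO pools, from 51 and 12 reads. The groups did not overlap (log2 fold change -1.94, 95% interval -3.48 to -0.40, unadjusted p = 0.0175), but the adjusted p was 0.306 and the peak came from the WT list alone. It was called without the library labelled WT female (-2.39, adjusted p = 0.0117). A second Rpb2 peak 420 bp downstream, from the KO list, held 15.6 and 8.56 CPM against 11.1 and 13.3 (0.02), and H3K27ac at the promoter gave 0.02 (95% interval -0.66 to 0.69). *Hdac1* showed no difference beyond the spread in Rpb2 (76.2 and 66.5 CPM against 59.8 and 73.7). In H3K27ac its KO pools lay below both WT pools by a narrow margin (42.7 and 45.1 against 42.6 and 27.3). That peak was not called (-0.33, 95% interval -0.93 to 0.27, adjusted p = 0.876). For *Hdac3*, the Rpb2 promoter peak held 37.3 and 52.7 CPM in the WT pools and 61.5 and 53.8 in the KO pools, apart by a narrow margin (0.36, 95% interval -0.46 to 1.17, adjusted p = 0.726).

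*Kdm6b* had hardly any reads in WT at its promoter peak, 197 bp upstream of the TSS. The WT pools held 2 and 0 reads and the KO pools 51 and 38, which is 15.5-fold more in KO per read in peaks, with an exact counting interval of 4.16 to 130. The test across all peaks gave an unadjusted p of 0.00933 and an adjusted p of 0.263, and the peak came from the KO list alone; edgeR's likelihood ratio test called it at an adjusted p of 0.0223. Without the library labelled WT female, which holds both WT reads, edgeR's quasi-likelihood test called it at an adjusted p of 0.00600. Even in KO this peak was minor, at 12.0 ± 3.92 CPM against 164 ± 14.6 for the peak 3315 bp downstream. At the peak 3935 bp downstream, from both lists, the WT pools held 124 and 182 CPM and the KO pools 114 and 90.9. Both KO pools were lower there (-0.57, unadjusted p = 0.0569, adjusted p = 0.423), without a call. Its neighbours at 2277, 3315 and 4853 bp gave 0.02, -0.33 and 0.17. The 8 Rpb2 peaks of *Kdm6b* together held 607 and 586 CPM in the WT pools and 577 and 564 in the KO pools, a log2 fold change of -0.06 with the narrowest interval of the member sums (-0.32 to 0.19). The tall H3K27ac peak held 248 and 337 CPM against 310 and 248 (-0.07, 95% interval -0.71 to 0.57).

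*Brd3* showed no separation of the genotypes. Its promoter peak held 72.3 and 49.4 CPM of Rpb2 in the WT pools and 59.1 and 74.9 in the KO pools (0.14, 95% interval -0.62 to 0.89), and 24.9 and 28.0 CPM of H3K27ac against 28.9 and 19.8 (-0.12, 95% interval -0.80 to 0.56).

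Among the H3K27ac gene sums of members, *Ezh2* had the lowest p (log2 fold change 0.52, 95% interval -0.12 to 1.17, adjusted p = 0.909). Its single peak of 2616 bp held 26.3 and 23.7 CPM in the WT pools and 36.4 and 34.8 in the KO pools, so both KO pools were higher. Tested among the peaks, it gave 0.51 (95% interval -0.13 to 1.16, adjusted p = 0.811). *Brd2* acetylation depended on the WT library used. The 9394 bp peak held 281 CPM in the WT female library, with its low share of reads in peaks. The WT male library held 428 CPM there, and the KO pools 414 and 421. The log2 fold change was 0.24 with all 4 libraries, -0.04 without the WT female library (adjusted p = 0.864) and 0.57 without the WT male library (adjusted p = 7.42e-06). *Ep300* moved in the same manner in its summed H3K27ac, from 191 and 285 CPM in the WT pools and 224 and 201 in the KO pools: -0.16 with all libraries (adjusted p = 0.994), -0.42 without the WT female library (adjusted p = 0.0169) and 0.16 without the WT male library (adjusted p = 0.392). The summed H3K27ac of *Kdm6b* was -0.01 with all libraries, -0.26 without the WT female library (adjusted p = 0.0808) and 0.30 without the WT male (adjusted p = 0.00970). Its peak 5363 bp upstream gave 0.20, -0.16 (adjusted p = 0.771) and 0.69 (adjusted p = 0.0277) in the same order. Without the WT female library the promoter peaks of *Hdac2* and *Crebbp* also changed sign, to -0.16 (adjusted p = 0.857) and 0.037 (adjusted p = 0.979). Without the WT male library 2 weak distal *Ep300* peaks were called as well, 52055 bp upstream (1.43, adjusted p = 0.0403) and 54156 bp upstream (-4.16, adjusted p = 0.0255), in opposite directions. The part of the low share of reads in peaks in these values was not tested.

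**Figure D3:**
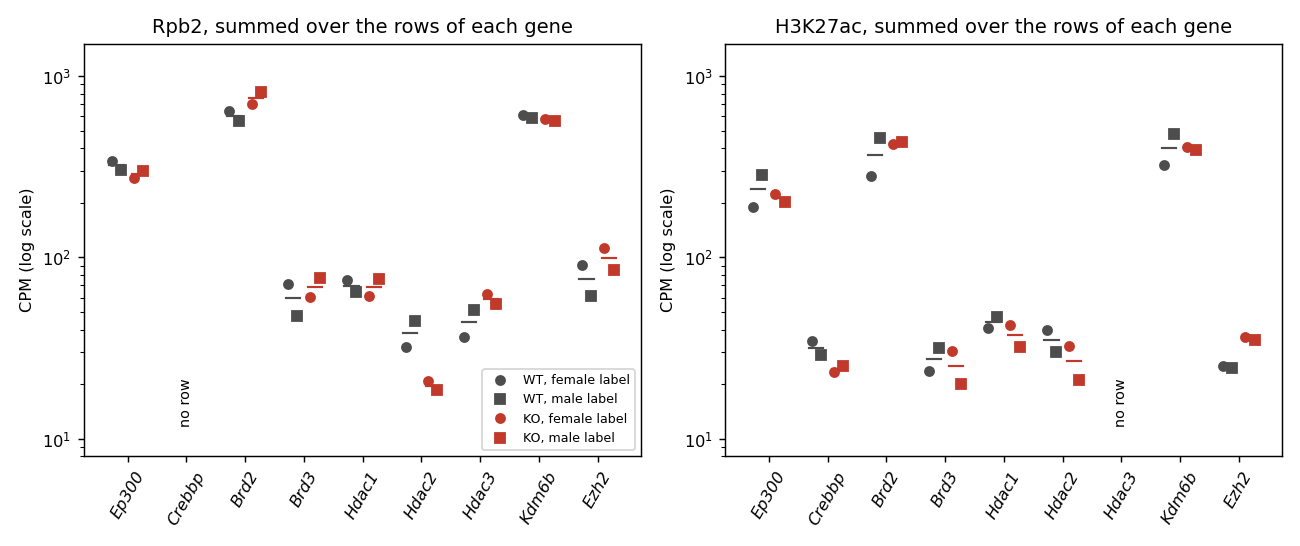
Summed CPM of each member over its peaks, on a log scale, for Rpb2 (left) and H3K27ac (right); grey is WT, red KO, circles and squares the pools labelled female and male, and short lines the means of 2 pools. *Brd2* and *Kdm6b* have the highest Rpb2 sums, at 603 and 597 CPM in WT, over 9 and 8 peaks and not per kb. *Brd3*, *Hdac1* and *Hdac3* have 1 Rpb2 peak each. The 2 WT libraries of H3K27ac lie farther apart than the 2 KO libraries at *Brd2*, *Ep300* and *Kdm6b*.

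**Figure D4:**
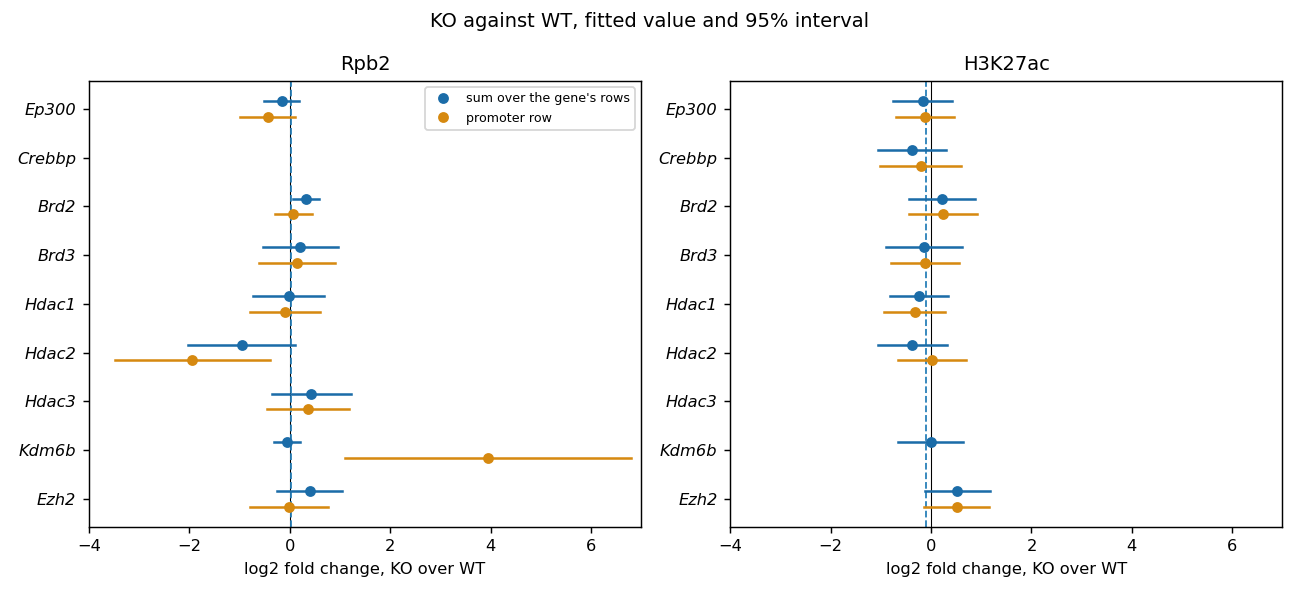
Fitted log2 fold change of KO over WT with its 95% interval, for the sum over each gene's peaks (blue) and for the promoter peak (orange); the dashed line is the median of the gene sums of all genes, 0.02 for Rpb2 and -0.11 for H3K27ac. Intervals include 0 except for the *Brd2* Rpb2 sum and the *Hdac2* and *Kdm6b* Rpb2 promoter peaks, none of which passed the adjusted threshold.

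The partners of these enzymes were examined in 7 lists of 77 genes in all, none a member. No promoter peak of these genes was called, among 56 for Rpb2 and 58 for H3K27ac, and neither was any of their 128 Rpb2 and 310 H3K27ac peaks. Of those peaks, 13 (10.2%) and 10 (3.23%) had an unadjusted p under 0.05, beside 12.2% and 4.95% of all peaks. The acetyltransferases and their partners had 10 Rpb2 promoter peaks with a median log2 fold change of 0.15, 6 of them higher in KO, beside a median of -0.11 over the promoter peaks of all genes. The 5 bromodomain and YEATS readers had -0.17 with 1 higher, the 8 other deacetylases 0.07 with 5 higher, and the 12 corepressor genes of the deacetylase complexes 0.10 with 7 higher. PRC2 subunits had -0.30 over 9 genes with 4 higher, the Polycomb repressive complex 1 genes -0.16 over 7 with 0 higher, and *Kdm6a* with its COMPASS partners 0.06 over 5 with 3 higher. For H3K27ac the list medians lay between -0.17 and 0.19, beside 0.05 for all genes.

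In Rpb2, *Kat2a*, which encodes the acetyltransferase GCN5, had the lowest p of the partners. *Kat2a* held 63.5 ± 5.15 CPM at its promoter peak in WT and 22.1 ± 0.902 in KO (log2 -1.52, with an adjusted p of 0.198). The 2 partners with the lowest p in H3K27ac were *Kat8*, an acetyltransferase of H4 lysine 16, with 16.2 ± 2.90 CPM in WT and 28.1 ± 4.10 in KO (0.79, adjusted p = 0.811), and *Aebp2*, a PRC2 accessory subunit, with 45.5 ± 0.473 and 29.6 ± 0.674 CPM (-0.62, adjusted p = 0.811). None of the 3 was called.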

How the data were processed

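Microglia of 2-month-old WT and *Cx3cr1*-KO mice were assayed by ChIP-seq for Rpb2 and H3K27ac. Single-end reads of 51 nt were aligned by the authors to mm10 (Bowtie2, unique hits only). HOMER peaks that replicated between pools were merged across genotypes, and the deposited tables hold unnormalized read counts, 1 column per library. The 4 input samples were not analysed here, and 0 columns of per-sample values were left unused.

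Groups came from the sample labels. Peaks averaging 4 or more reads in either genotype entered a genotype-only model in R 4.3.3 (edgeR 4.0.16, quasi-likelihood, TMM, Benjamini-Hochberg adjustment), as did counts summed by gene name. The study's methods used DESeq2 on peaks near a TSS; all peaks entered here, since member peaks lie also in introns and upstream, and that choice, DESeq2 1.42.0, loess offsets (limma 3.58.1), other scalings and filters, a sex block and leaving out each library were run as alternatives. Single-library log2 ratios used a prior count of 2. Gene positions came from GENCODE, promoter windows from RefSeq GRCm38.p6 and peak sequences from the matching genome. Members were the 9 genes; partners named were those with a called peak or, failing that, the 2 lowest p of a promoter peak per mark. One result that this rule names is not reported here. Other genes and peaks named were chosen after their values were seen. Members and lists were chosen with earlier results of these data known. A count of 3 reads was the floor, and counting intervals cover counting error only. Labels give separate pools, not whether they were processed separately, so p-values measure the spread between pools. The steps were tested on simulated data. Other software was matplotlib 3.10.9, pandas 2.3.3, SciPy 1.17.1, NumPy 2.4.6 and Python 3.11.15. Pools share sex labels across genotypes but not animals, and their deviations from the genotype means did not move together (r = -0.00762 for Rpb2 and -0.000271 for H3K27ac peaks). The Rpb2 value pairs pools by label, and the library labelled WT female goes against its label. It therefore cannot show whether Rpb2 pools of the same sex moved together.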

Additional observations from a re-analysis of the deposited data

Results flagged for a closer look

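The ratio of KO to WT pointed in opposite directions in the pools labelled female and in those labelled male at 14 of the 32 member Rpb2 peaks and at 15 of the 30 member H3K27ac peaks. Over all peaks this share was 39.3% for Rpb2 and 40.4% for H3K27ac. Among them was the *Brd2* promoter peak, with log2 ratios in the female and male pools of -0.08 and 0.21 for Rpb2 and 0.56 and -0.02 for H3K27ac. The *Kdm6b* H3K27ac peaks over and 3206 bp past its TSS gave -1.25 and 1.29, and 0.32 and -0.44. The female H3K27ac ratios use the WT library with 15.9% of its reads in peaks. With 1 pool per sex and genotype the difference was not tested, and the Rpb2 library labelled WT female goes against its sex label.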

How the results depend on the processing

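Of 557 alternative values of 44 member results, 485 kept direction and side of the threshold. A further 61 changed sign, whether or not the call changed, and 11 gained a call with the sign kept. The cause was not tested. Called Rpb2 peaks (2) became 1022 with DESeq2, 30 with at least 10 reads in every library, 4 with sex as a replicate block, 1 with loess offsets, 924 with the likelihood ratio test, 0 within 1000 bp of a TSS, 8 for peaks of both lists, 272 with the newer quasi-likelihood method (chosen after seeing the data) and 0 to 2210 leaving out 1 library. Member Rpb2 peaks called (0) became 2 with DESeq2, 1 with the likelihood ratio test and 0 to 4 leaving out 1 library. Rpb2 gene sums (0) became 28 with DESeq2, 6 with at least 10 reads, 43 with the block, 40 with the newer method and 0 to 264 leaving out 1. H3K27ac peaks (13) became 240 with DESeq2, 1 with at least 10 reads, 0 each with total reads as library size, within 1000 bp, for both lists and with the newer method, and 2 to 8157 leaving out 1. Member H3K27ac peaks (0) became 1 with DESeq2 and 0 to 4 leaving out 1. H3K27ac gene sums (0) became 208 with DESeq2, 140 with the block and 88 to 3807 leaving out 1, and member sums 0 to 2. The replicate numbers share only a sex label, and the block changed no member call. For Rpb2 the block follows labels that the library labelled WT female goes against. *Hdac1* Rpb2 at 53 bp became 0.036 (at least 10 reads), 0.035 (loess), 0.25 (total reads), 0.028 (near a TSS) and 0.066 (both lists), and its sum 0.00055 (at least 10 reads). *Ezh2* Rpb2 at -134 bp became 0.12 (at least 10 reads), 0.11 (loess), 0.28 (total reads), 0.11 (near a TSS) and 0.028 (newer method), and *Kdm6b* at 2277 bp -0.00090 (newer method). *Hdac2* H3K27ac at -78 bp became -0.040 (at least 10 reads), -0.042 (DESeq2), -0.041 (its size factors), -0.080 (loess), -0.056 (near a TSS), -0.030 (both lists), -0.017 (newer method) and -0.0074 (block), and the *Kdm6b* sum 0.019 (block). Total reads moved the median of all peaks to 0.37 for Rpb2 and 0.53 for H3K27ac, and H3K27ac to 0.51 for *Kdm6b* at 3206 bp, 0.46 and 0.36 for *Ep300* at -338 and -17774 bp, 0.36 for *Hdac1*, 0.54 for *Brd3* and 0.62 for *Crebbp* at -770 bp. Leaving out 1 library gave, for Rpb2, *Kdm6b* -0.17 to 0.61 (4853 bp) and -0.32 to 0.31 (2277 bp), *Ezh2* -0.39 to 0.27, *Brd2* -0.19 to 0.55 (-704 bp) and -0.046 to 0.17 (614 bp), *Brd3* -0.11 to 0.42 (sum -0.052 to 0.50), *Ep300* -0.18 to 0.43 (-721 bp) and *Hdac1* -0.25 to 0.048 (sum -0.19 to 0.13). For H3K27ac it gave *Brd2* -0.041 to 0.57 (sum -0.088 to 0.61), *Kdm6b* -0.16 to 0.69 (-5363 bp) and -0.28 to 0.17 (3206 bp; sum -0.26 to 0.30), *Hdac2* -0.33 to 0.30, *Crebbp* -0.43 to 0.037, *Ep300* -0.33 to 0.15 (-338 bp) and -0.50 to 0.40 (-17774 bp; sum -0.42 to 0.16) and *Brd3* -0.42 to 0.13 (sum -0.47 to 0.13). With 1 library left in a genotype, it is assumed to vary like the other genotype.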
